A study of Caenorhabditis elegans with 21 samples.

Results

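Heterotrimeric G proteins pass signals from membrane receptors to enzymes inside the cell. Their genes in *C. elegans*, with those of the cAMP pathway, were taken from the gene count table by name. The set holds the Gα genes (*gpa* genes, *gsa-1*, *goa-1* and *egl-30*) and the Gβ and Gγ genes (*gpb* and *gpc*). Also in it are the regulators of G protein signalling (*rgs* genes, *egl-10* and *eat-16*) and the exchange factor gene *ric-8*. Its enzymes include those of the phospholipase gene *egl-8*, the diacylglycerol kinase gene *dgk-1* and the adenylyl cyclase genes (*acy*). The protein kinase A genes *kin-1* and *kin-2* and the phosphodiesterase genes (*pde*) complete it. The whole set was 54 of the 45461 genes listed. Membership was set by gene name.

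A receptor bound by its ligand makes the α subunit exchange GDP for GTP and part from the βγ pair, and RGS proteins end the signal by speeding GTP hydrolysis. In worm motor neurons EGL-30 (Gq) raises acetylcholine release through the phospholipase EGL-8 and diacylglycerol, and GOA-1 (Go) opposes it, while GSA-1 (Gs) acts through adenylyl cyclase, cAMP and protein kinase A. Most of the other *gpa* genes are known from chemosensory neurons, where they carry responses to odours, tastants and pheromone.

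The libraries were poly(A) RNA of whole animals grown at 20°C, 3 from the *hpl-2*(*tm1489*) strain and 2 from wild-type N2 (Bristol). The *tm1489* allele is a deletion in the gene for the HP1-family chromatin protein HPL-2, and every cell of the mutant carries it. The sample labels give stage L4 for the mutant and young adult for N2, whereas the study's own list of sequenced samples gives L4 for both, so genotype and a possible difference in stage cannot be told apart. In whole-animal RNA, fewer cells of a type and less RNA per cell also cannot be told apart.

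Total counts per library were 66490671 and 80724052 in N2 and ran from 95252804 to 114718047 in the mutant, and 17498 genes passed the filter on low counts. Levels are given as CPM (counts per 1000000 counts of a library, after TMM normalization), differences as log2 fold changes of *hpl-2*(*tm1489*) over N2 with their standard error (SE), and calls of higher or lower rest on edgeR's quasi-likelihood test, with the Benjamini-Hochberg adjusted p over all genes below 0.1. The *hpl-2* gene itself stood at 38.9 and 38.6 CPM in N2 and at 26.7, 30.4 and 29.9 CPM in the mutant, a difference of -0.42 (SE 0.26) that did not pass (edgeR adjusted p = 0.193). Marker genes of other tissues moved widely. All 8 body wall muscle markers were lower, with a summed level of 9239 to 14560 CPM in N2 and 2102 to 2612 in the mutant, as were 9 of 10 molting-cycle genes (1321 to 1905 against 109.9 to 169.6 CPM), 6 of 6 vitellogenin genes (6620 to 7254 against 808.1 to 1646 CPM), 4 of 6 hypodermis and 4 of 5 intestine markers. All 11 oocyte and eggshell genes were higher (396.3 to 571 CPM in N2, 1218 to 4638 in the mutant, lowest in replicate 2), and 3 of 6 sperm genes were lower. Of 7 germ line markers 2 were higher and 1 lower. The pan-neuronal markers divided into 1 higher, 6 lower and 5 with no call of 12, with summed levels of 544.7 to 642.8 CPM in N2 and 371.9 to 402.5 in the mutant. No marker was at 0 in either group, and the part of any of these in the results below was not tested.

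Of the 54 genes 52 were tested, and 41 of them (78.8%) were called. Calls were made for 61.5% of all tested genes. Among the pathway genes 20 were higher and 21 lower, where 33.9% of all tested genes were higher and 27.6% lower. In 44 of them the mutant libraries all lay on 1 side of both N2 libraries, 21 above and 23 below, against 72% of all tested genes. The median difference was 0.05 on the log2 scale, and over all tested genes it was 0.16. The remaining pair, *rgs-8.1* and *rgs-8.2*, had 0 counts in every library. Both have a gene span of 1082 bp. Only uniquely mapped reads were counted, and whether reads of this pair map uniquely was not tested.

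The calls divided by role. Higher calls were made for 10 of 13 chemosensory Gα genes and all 3 other *gpa* genes. Lower calls were made for both protein kinase A genes, *egl-8* and *dgk-1*, 3 of 4 adenylyl cyclase genes and 4 of 6 phosphodiesterase genes. The core Gα, Gβγ and RGS genes moved in both directions. Together the pathway genes held 0.17 and 0.175% of the counts in N2 and 0.122, 0.112 and 0.11% in the mutant libraries. Of the 20 higher and 21 lower calls, 9 in each direction held in all 12 alternative fits. The higher calls fell to 10 without N2 replicate 2, to 13 without *hpl-2*(*tm1489*) replicate 1, and to 11 with upper quartile scaling, which left 23 lower calls and moved the higher share of all calls from 55.1 to 42.5%.

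**Figure D1:**
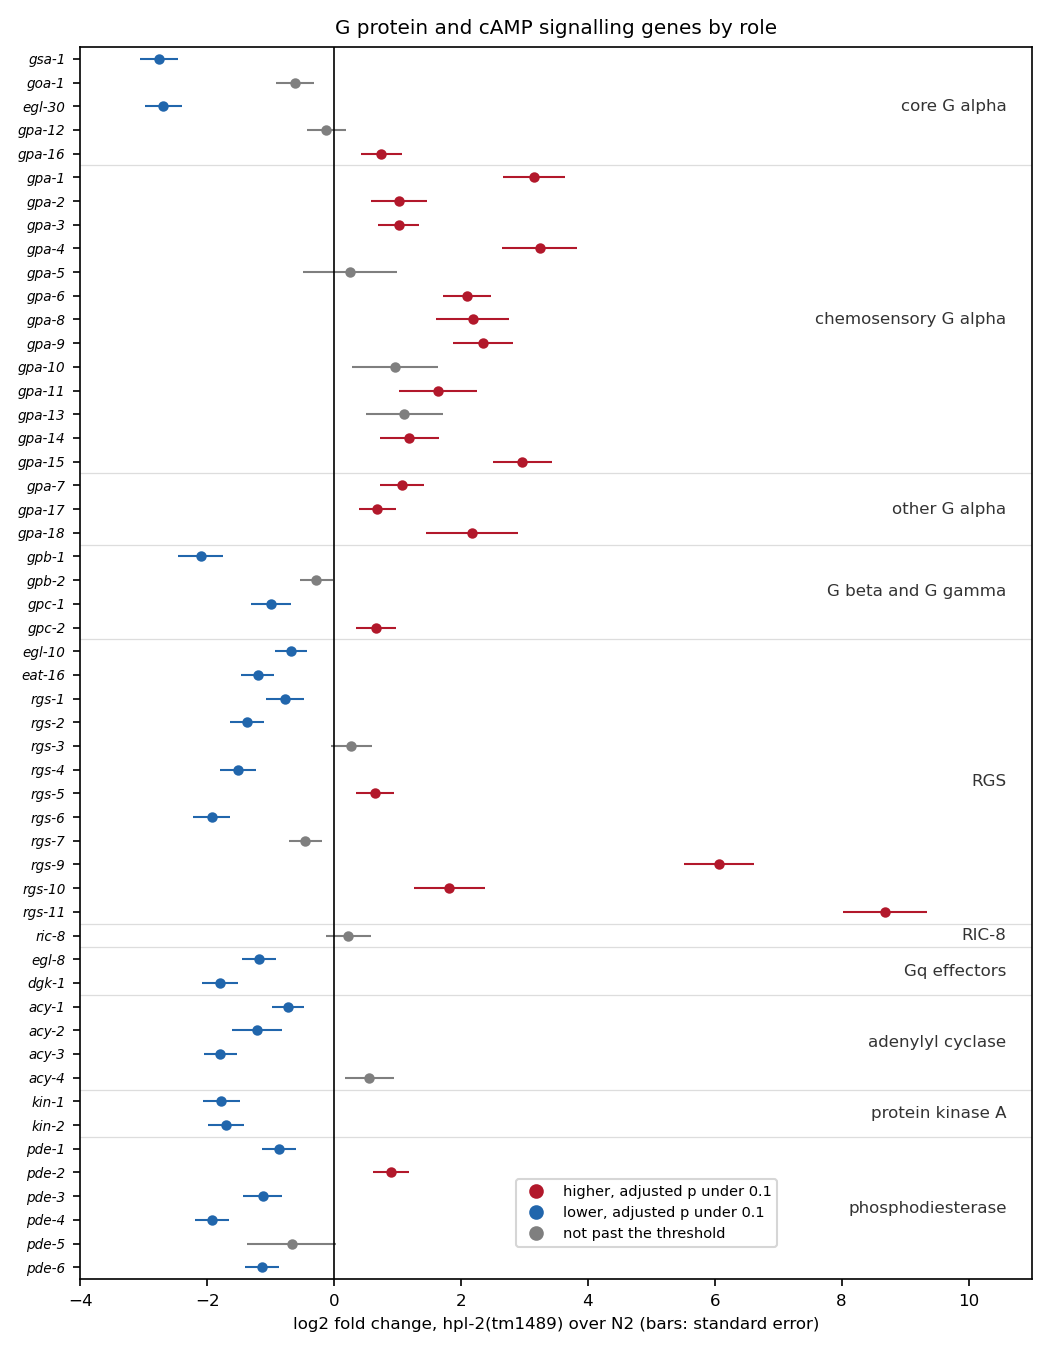
Log2 fold change of *hpl-2*(*tm1489*) over N2 (horizontal axis) for each of the 52 tested genes, grouped by role, with bars of 1 standard error. Red points were called higher and blue points lower at an adjusted p under 0.1, and grey points were not called. The points of the chemosensory Gα genes lie to the right of 0. Those of protein kinase A and of *egl-8* and *dgk-1*, which share the label Gq effectors, lie to the left.

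The falls among the Gα genes were those of Gs and Gq. *gsa-1*, the Gs gene whose product turns on adenylyl cyclase, was counted at 28.0 and 39.9 CPM in N2 and at 5.46, 3.83 and 5.79 CPM in the mutant. The groups were far apart, with a log2 fold change of -2.75 (SE 0.30, edgeR adjusted p = 9.8e-05), or 6.74-fold lower. *egl-30*, the single Gq gene, was counted at 164 and 232 CPM in N2 and at 33.3, 24.1 and 34.7 CPM in the mutant. Its fall was of like size, at -2.69 (SE 0.29, edgeR adjusted p = 8.79e-05). Both calls held in all 12 alternative fits, with the difference without any 1 library running from -2.98 to -2.47 for *gsa-1* and from -2.91 to -2.41 for *egl-30*.

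The Go gene *goa-1*, whose product opposes Gq in motor neurons and positions the spindle in the early embryo, stood at 168 and 263 CPM in N2. The mutant libraries had 149, 107 and 165 CPM, all below N2 but with replicate 3 next to N2 replicate 1. The difference of -0.62 (SE 0.30) just missed the threshold (edgeR adjusted p = 0.107). It passed in 8 of the 12 alternative fits, among them that without *hpl-2*(*tm1489*) replicate 2 (-0.55, edgeR adjusted p = 0.0713). With upper quartile scaling it was -0.955 (edgeR adjusted p = 0.0141). The difference was -0.90 without N2 replicate 1 and shrank to -0.25 without N2 replicate 2. It was not called with library size scaling (-0.35, edgeR adjusted p = 0.259). Nor was it once the trend with gene span described below was removed (-0.22, edgeR adjusted p = 0.522).

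*gpa-16*, which acts with *goa-1* in spindle positioning, was the only core Gα gene called higher. It had 18.8 and 19.7 CPM in N2 and 32.9, 21.9 and 41.7 CPM in the mutant, where replicate 2 lay close to N2. The rise of 0.74 (SE 0.32, edgeR adjusted p = 0.0773) lost its call without either N2 library (0.72 and 0.79) and without *hpl-2*(*tm1489*) replicate 1 (0.64) or 3 (0.50). *gpa-12* overlapped between the groups, at 15.5 and 11.1 CPM in N2 and 9.81, 16.2 and 10.7 CPM in the mutant. Its difference of -0.12 (SE 0.31) was not called (edgeR adjusted p = 0.767) and had the opposite sign (0.13) with library size scaling.

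**Figure D2:**
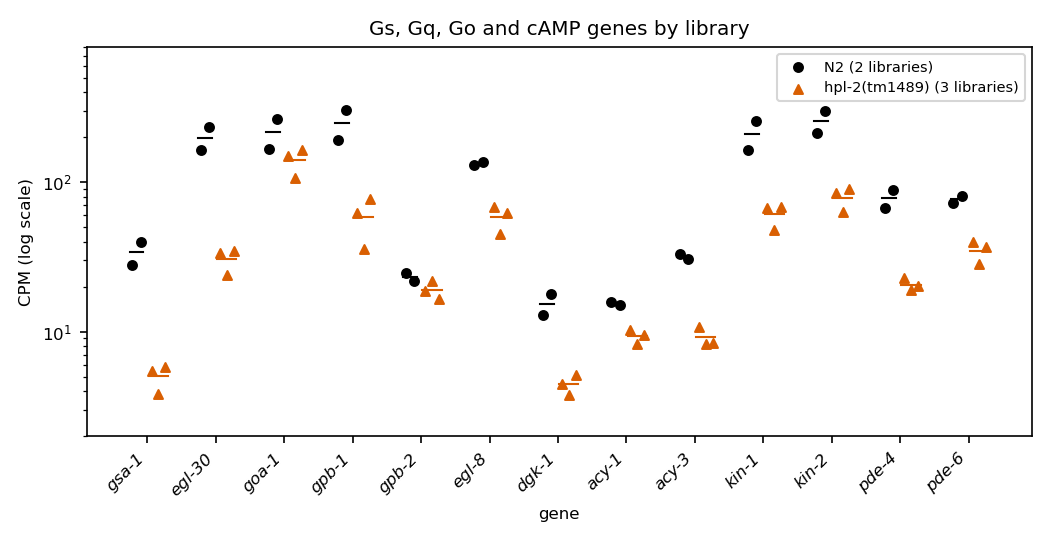
CPM in each library (vertical axis, log scale) for genes of the Gs, Gq and Go pathways, with black circles for the 2 N2 libraries, orange triangles for the 3 *hpl-2*(*tm1489*) libraries and a line at each group mean. The triangles of *gsa-1* and *egl-30* lie far below the circles, and those of *goa-1* lie just below them.

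The 13 chemosensory Gα genes all had a positive difference, from 0.25 to 3.24 with a median of 1.63, and in 11 of them every mutant library lay above both N2 libraries. Of all 17498 tested genes 9510 had a positive difference, and in 6824 every mutant library lay above both N2 libraries. For *gpa-4*, *gpa-8*, *gpa-11* and *gpa-13* both N2 libraries together held under 20 reads. *gpa-4* had 15 and 3 reads in N2 and 114, 150 and 131 in the mutant. Its rise of 3.24 (SE 0.58, edgeR adjusted p = 0.00138) rests on those 18 N2 reads, which give a ratio of normalized counts of 8.86 with a 95% interval from counting error alone of 5.53 to 15.1. *gpa-1* had 1.06 and 0.576 CPM in N2 and 5.32, 11.4 and 5.32 CPM in the mutant, a rise of 3.15 (SE 0.49, edgeR adjusted p = 0.000591). *gpa-15* had 1.181 and 0.520 CPM in N2 and 4.91, 9.44 and 5.96 CPM in the mutant, a rise of 2.97 (SE 0.47, edgeR adjusted p = 0.000655). In *gpa-1* and *gpa-15* replicate 2 was the highest mutant library, and every mutant library lay above both N2 libraries.

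A rise of over 2 on the log2 scale was also found for *gpa-9*, *gpa-8* and *gpa-6*. *gpa-9* had 1.91 and 0.855 CPM in N2 and 4.73, 10.2 and 6.41 CPM in the mutant (2.35, SE 0.47, edgeR adjusted p = 0.00236). *gpa-6* had 1.22 and 0.892 CPM in N2 and 4.58, 5.74 and 3.25 CPM in the mutant (2.09, SE 0.38, edgeR adjusted p = 0.00137). *gpa-8* was the sparser, with 12 and 5 reads in N2 and 53, 80 and 53 in the mutant (2.18, SE 0.58, edgeR adjusted p = 0.0104). In each of them the groups did not overlap. The calls of *gpa-1*, *gpa-4*, *gpa-6*, *gpa-8*, *gpa-9* and *gpa-15* held in all 12 alternative fits.

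The calls of the smaller rises did not hold with every library left out. *gpa-3* and *gpa-2*, whose products act in the dauer pheromone response, were higher by 1.02 each. *gpa-3* had 2.19 and 1.88 CPM in N2 and 3.93, 4.97 and 3.46 CPM in the mutant (SE 0.32, edgeR adjusted p = 0.0221), and the call ended only without N2 replicate 2 (0.92, edgeR adjusted p = 0.104) and with upper quartile scaling among the left-out libraries and scalings. *gpa-2* had 1.75 and 0.743 CPM in N2 and 2.13, 3.42 and 2.13 CPM in the mutant (SE 0.44, edgeR adjusted p = 0.0750). *gpa-11* had 10 and 5 reads in N2 and 36, 36 and 40 in the mutant, a rise of 1.63 (SE 0.62, edgeR adjusted p = 0.0462). *gpa-14* had 1.02 and 0.353 CPM in N2 and 1.55, 1.73 and 1.49 CPM in the mutant, a rise of 1.19 (SE 0.47, edgeR adjusted p = 0.0555). These last 3 genes lost their calls without N2 replicate 2 (0.55, 1.47 and 0.65 for *gpa-2*, *gpa-11* and *gpa-14*). They also lost them without *hpl-2*(*tm1489*) replicate 1 (1.09, 1.69 and 1.14) or 3 (1.13, 1.43 and 1.22). Without *hpl-2*(*tm1489*) replicate 2 *gpa-2* and *gpa-14* (0.65 and 1.01) lost theirs too. For *gpa-11* without mutant replicate 1 and *gpa-14* without mutant replicate 3 the difference did not shrink but the SE was larger. It was 0.85 and 0.59, against 0.62 and 0.47 with all libraries.

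No call was made for *gpa-5*, *gpa-10* and *gpa-13*. *gpa-13* had 13 and 6 reads in N2 and 45, 37 and 20 in the mutant, and its difference of 1.11 (SE 0.61) missed the threshold although the groups did not overlap in CPM (edgeR adjusted p = 0.148). *gpa-10* had 0.298 and 0.0929 CPM in N2 and 0.235, 0.599 and 0.350 CPM in the mutant (0.96, SE 0.68, edgeR adjusted p = 0.257), and it passed without N2 replicate 1 (2.08, edgeR adjusted p = 0.0761). *gpa-5* had 25 and 3 reads in N2 and 38, 27 and 13 in the mutant. Its difference of 0.25 (SE 0.74, edgeR adjusted p = 0.796) could not be told from 0 at this depth and was -0.06 with upper quartile scaling.

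The N2 libraries differed from each other in this group. N2 replicate 1 lay above N2 replicate 2 in all 13 chemosensory Gα genes, and in 32 of the 52 tested genes. Without N2 replicate 2 the number called fell from 10 to 6, and without N2 replicate 1 it was 11. It was 7, 8 and 7 without *hpl-2*(*tm1489*) replicates 1, 2 and 3. Upper quartile scaling also gave 6. Of the 12 pan-neuronal markers 6 were lower and 1 was higher. The lower ones were *egl-3* (-1.94), *unc-10* (-1.73), *egl-21* (-1.47), *unc-18* (-1.26), *sng-1* (-0.999) and *rab-3* (-0.71). The higher one was *ric-4* (0.91, with 23.9 and 15.1 CPM in N2 and 30.2, 52.3 and 27.3 CPM in the mutant).

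**Figure D3:**
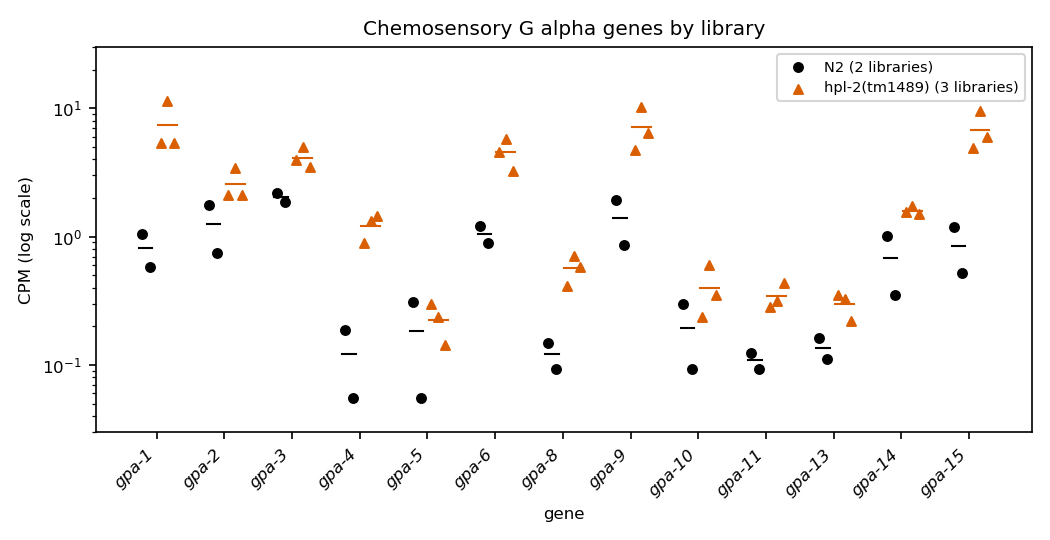
CPM in each library (vertical axis, log scale) for the 13 chemosensory Gα genes, with black circles for the 2 N2 libraries, orange triangles for the 3 *hpl-2*(*tm1489*) libraries and a line at each group mean. The triangles lie above both circles in 11 of the 13 genes, and overlap them in *gpa-5* and *gpa-10*.

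Among the other *gpa* genes, *gpa-7* was higher by 1.07 (SE 0.34, edgeR adjusted p = 0.0230), with 7.71 and 4.74 CPM in N2 and 10.4, 17.1 and 11.9 CPM in the mutant. *gpa-17* was higher by 0.68 (SE 0.29, edgeR adjusted p = 0.0701), with 39.6 and 29.3 CPM in N2 and 54.1, 64.9 and 47.0 CPM in the mutant. *gpa-18* had 4 and 18 reads in N2 and 72, 124 and 75 in the mutant, a rise of 2.18 (SE 0.73, edgeR adjusted p = 0.0285). The N2 libraries of *gpa-18* were themselves far apart, and its rise was 4.03 without N2 replicate 2 and 1.31 without replicate 1, called in both. Without N2 replicate 2 *gpa-7* (0.78) and *gpa-17* (0.49) lost their calls, and *gpa-17* also without *hpl-2*(*tm1489*) replicate 1 (0.65) or 2 (0.46).

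The Gβ and Gγ genes moved in different directions. *gpb-1*, the Gβ that pairs with the Gα subunits in general, was counted at 191 and 305 CPM in N2 and at 62.0, 35.5 and 76.5 CPM in the mutant. It was lower in the mutant (log2 fold change -2.10, SE 0.36, edgeR adjusted p = 0.000989), a call that held in all 12 alternative fits. *gpb-2*, the Gβ5 homolog that works with the RGS proteins EGL-10 and EAT-16, stood at 24.5 and 21.9 CPM in N2 and at 18.8, 21.9 and 16.6 CPM in the mutant. Its difference of -0.28 (SE 0.27) was not called (edgeR adjusted p = 0.399), and it passed only without *hpl-2*(*tm1489*) replicate 2 (-0.48, edgeR adjusted p = 0.0831) among the left-out libraries.

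*gpc-1*, a Gγ gene known from sensory neurons, was lower (-0.997, SE 0.31, edgeR adjusted p = 0.0219), with 4.33 and 3.96 CPM in N2 and 2.20, 2.42 and 1.60 CPM in the mutant. It lost its call with library size scaling and with the replicate number as a block. *gpc-2*, the broadly used Gγ gene, had 74.7 and 64.6 CPM in N2 and 93.4, 152 and 86.1 CPM in the mutant. Its rise of 0.67 (SE 0.31) was at the threshold (edgeR adjusted p = 0.0992). The call held in only 2 of the 12 alternative fits. It ended with DESeq2 (0.62, DESeq2 adjusted p = 0.116) and with its size factors (0.61, edgeR adjusted p = 0.135). It also ended without N2 replicate 1 (0.78) or 2 (0.57) and without *hpl-2*(*tm1489*) replicate 1 (0.74) or 2 (0.27). The sign turned to -0.16 once the trend with gene span described below was removed.

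RGS genes covered the widest range of differences, from -1.93 to 8.68, with 4 higher, 6 lower and 2 not called of 12 tested. *eat-16*, the RGS gene that acts on Gq, had 32.1 and 29.5 CPM in N2 and 13.98, 14.1 and 11.9 CPM in the mutant. Its fall was -1.21 (SE 0.25, edgeR adjusted p = 0.00326) and held in all 12 alternative fits. *egl-10*, the RGS gene that acts on Go, had 21.03 and 19.7 CPM in N2 and 13.4, 11.8 and 12.9 CPM in the mutant. Its fall was smaller, at -0.68 (SE 0.25, edgeR adjusted p = 0.0420), and lost its call without N2 replicate 1 (-0.62) or 2 (-0.72) or *hpl-2*(*tm1489*) replicate 1 (-0.78).

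*rgs-1* and *rgs-2*, which act together on Go in egg laying, were both lower. *rgs-2* had 9.49 and 11.1 CPM in N2 and 4.58, 3.80 and 3.56 CPM in the mutant (-1.37, SE 0.27, edgeR adjusted p = 0.00233). *rgs-1* had 3.22 and 3.66 CPM in N2 and 1.82, 1.97 and 2.22 CPM in the mutant (-0.78, SE 0.30, edgeR adjusted p = 0.0503). Without N2 replicate 2 (-0.67) or *hpl-2*(*tm1489*) replicate 1 (-0.77) or 3 (-0.86) *rgs-1* was not called. *rgs-6* had the largest fall of the RGS genes, from 7.36 and 9.72 CPM in N2 to 2.04, 2.19 and 2.49 CPM in the mutant (-1.93, SE 0.29, edgeR adjusted p = 0.000481). *rgs-4* fell from 9.42 and 11.2 CPM to 3.94, 2.83 and 4.04 CPM (-1.52, SE 0.29, edgeR adjusted p = 0.00179). With the gene span trend removed *rgs-2* (-0.22) and *rgs-4* (-0.33) were not called (edgeR adjusted p = 0.529 and 0.300).

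The rises of *rgs-9* and *rgs-11* were the largest of all 52 genes tested. *rgs-11* had 4 and 0 reads in N2 and 1433, 1137 and 1494 reads in the mutant. Its 4 N2 reads give a ratio of normalized counts of 410 with a 95% interval from counting error alone of 160 to 1510, and the fitted log2 fold change of 8.68 (edgeR adjusted p = 2.88e-05) depends on the prior count at such low N2 reads. *rgs-9* had 15 and 2 reads in N2 and 1023, 787 and 882 reads in the mutant. Its ratio was 63.9 (39.8 to 110), with a fitted log2 fold change of 6.07 (SE 0.55, edgeR adjusted p = 4.26e-05). The groups were far apart in both genes, and both calls held in all 12 alternative fits.

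*rgs-10*, the neighbor of *rgs-11* on chromosome X, also rose, from 28 and 19 reads in N2 to 148, 68 and 180 in the mutant (1.82, SE 0.56, edgeR adjusted p = 0.0204). Replicate 2 was the lowest mutant library, and without replicate 3 the call ended (1.31, edgeR adjusted p = 0.106). *rgs-5* was higher by 0.64 (SE 0.30, edgeR adjusted p = 0.0955), with 9.01 and 5.98 CPM in N2 and 11.5, 9.96 and 13.8 CPM in the mutant. That call ended without N2 replicate 2 (0.39) or *hpl-2*(*tm1489*) replicate 1 (0.58) or 3 (0.50). It held in 4 of the 12 alternative fits and was not made with DESeq2 (0.59, DESeq2 adjusted p = 0.116). *rgs-3*, which acts in sensory neurons, overlapped between groups at 3.20 and 1.97 CPM in N2 and 3.24, 3.13 and 3.03 CPM in the mutant (0.27, SE 0.33, edgeR adjusted p = 0.499). It was -0.05 with upper quartile scaling, and was called higher with the gene span trend removed (1.17, edgeR adjusted p = 0.0183). *rgs-7*, known from spindle movements in the embryo, had 29.1 and 26.8 CPM in N2 and 22.5, 18.2 and 20.5 CPM in the mutant. All 3 mutant libraries of *rgs-7* were below N2, but the difference of -0.46 (SE 0.26) was not called (edgeR adjusted p = 0.163). It passed as lower with upper quartile scaling (-0.78, edgeR adjusted p = 0.0276) and without *hpl-2*(*tm1489*) replicate 2 (-0.47, edgeR adjusted p = 0.0728). With the gene span trend removed it passed as higher (0.66, edgeR adjusted p = 0.0464).

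**Figure D4:**
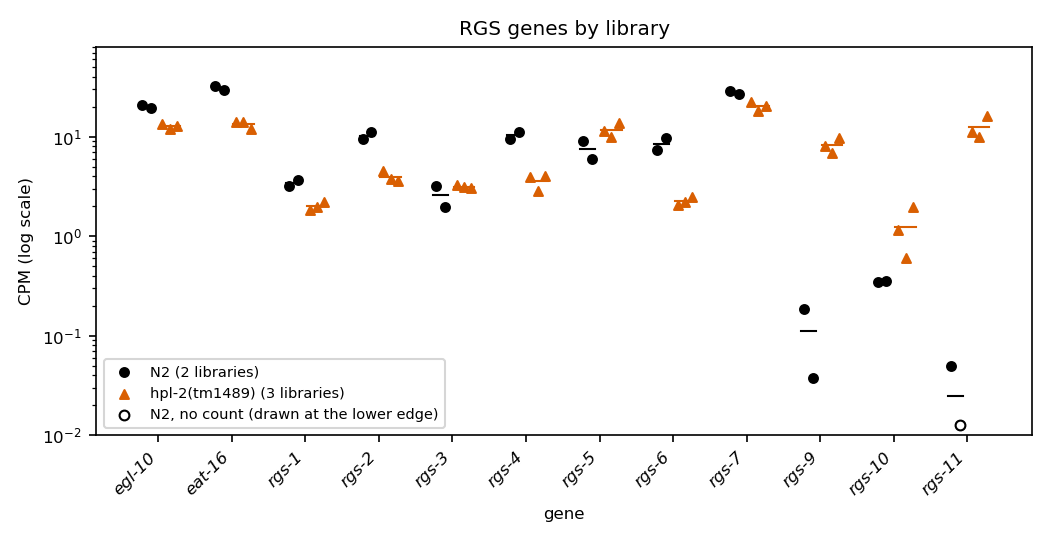
CPM in each library (vertical axis, log scale) for the 12 tested RGS genes, with black circles for the 2 N2 libraries, orange triangles for the 3 *hpl-2*(*tm1489*) libraries and a line at each group mean. The open circle marks the N2 library with 0 reads for *rgs-11*, drawn at the lower edge. *rgs-9* and *rgs-11* rise from at most 0.187 CPM in N2 to 6.93 CPM or more in every mutant library.

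*ric-8*, whose product is an exchange factor for Gα subunits, stood at 21 and 24.0 CPM in N2. The mutant libraries had 27.8, 15.9 and 35.4 CPM, on both sides of N2. Its difference of 0.23 (SE 0.35) was not called (edgeR adjusted p = 0.610), upper quartile scaling gave -0.13, and removal of the gene span trend gave a higher call (0.87, edgeR adjusted p = 0.0307).

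Both enzymes around diacylglycerol were lower. *egl-8*, the phospholipase C-β that EGL-30 turns on, had 129 and 136 CPM in N2 and 67.7, 45.2 and 62.0 CPM in the mutant (-1.18, SE 0.27, edgeR adjusted p = 0.00472). *dgk-1*, the diacylglycerol kinase that removes the product of EGL-8, had 12.9 and 17.9 CPM in N2 and 4.48, 3.75 and 5.09 CPM in the mutant (-1.79, SE 0.28, edgeR adjusted p = 0.000669). The producing and the removing enzyme thus fell together, and with them the Gq gene *egl-30* and its RGS gene *eat-16*. The call of *dgk-1* held in all 12 alternative fits, whereas *egl-8* turned to 0.15 with the gene span trend removed.

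Of the adenylyl cyclase genes, *acy-3* showed the largest fall. It had 33.0 and 30.4 CPM in N2 and 10.8, 8.27 and 8.41 CPM in the mutant (-1.79, SE 0.26, edgeR adjusted p = 0.000455). *acy-1*, the cyclase through which Gs acts in neurons and muscle, had 15.8 and 15.1 CPM in N2 and 10.3, 8.21 and 9.48 CPM in the mutant (-0.72, SE 0.25, edgeR adjusted p = 0.0357). Its groups were apart, yet the call ended without N2 replicate 1 (-0.68) or 2 (-0.75). *acy-2* had 145 and 57 reads in N2 and 71, 68 and 64 in the mutant, or 1.80 and 1.06 CPM against 0.556, 0.599 and 0.701 CPM (-1.22, SE 0.40, edgeR adjusted p = 0.0262). The difference shrank without N2 replicate 1, to -0.77 (edgeR adjusted p = 0.182), and the call also ended without *hpl-2*(*tm1489*) replicate 1 (-1.22). *acy-4*, the cyclase of the gonadal sheath in oocyte maturation, overlapped at 10.55 and 4.25 CPM in N2 and 9.53, 12.3 and 10.9 CPM in the mutant. Its difference of 0.56 (SE 0.38) was not called (edgeR adjusted p = 0.236), but it passed without N2 replicate 1 (1.37, edgeR adjusted p = 0.0193) and with the gene span trend removed (1.16, edgeR adjusted p = 0.0339).

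Both protein kinase A genes were lower by close amounts. *kin-1*, the catalytic subunit, had 164 and 254 CPM in N2 and 67.2, 47.6 and 68.5 CPM in the mutant (-1.77, SE 0.29, edgeR adjusted p = 0.000885). *kin-2*, the regulatory subunit that holds KIN-1 inactive until cAMP binds, had 214 and 299 CPM in N2 and 84.2, 62.8 and 89.2 CPM in the mutant (-1.70, SE 0.28, edgeR adjusted p = 0.000781). For both, the highest mutant library lay below the lowest N2 library by more than either group's SD. The *kin-2* call held in all 12 alternative fits, and *kin-1* lost its call only with the gene span trend removed (-0.15, edgeR adjusted p = 0.634).

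The phosphodiesterase genes were mostly lower. *pde-4*, a phosphodiesterase of cAMP, had 67.4 and 88.8 CPM in N2 and 22.9, 18.97 and 20.1 CPM in the mutant (-1.92, SE 0.27, edgeR adjusted p = 0.000359), and its call held in all 12 alternative fits, though only just with the gene span trend removed (-0.53, edgeR adjusted p = 0.0977). *pde-6* fell from 72.7 and 80.6 CPM to 39.5, 28.2 and 36.7 CPM (-1.14, SE 0.27, edgeR adjusted p = 0.00576). *pde-3* fell from 9.90 and 13.95 CPM to 5.65, 4.02 and 6.76 CPM (-1.12, SE 0.31, edgeR adjusted p = 0.0126), a call that ended without N2 replicate 2 (-0.84). *pde-1*, known from cGMP signalling in sensory neurons, fell from 7.72 and 7.78 CPM to 4.80, 3.76 and 4.21 CPM (-0.86, SE 0.27, edgeR adjusted p = 0.0221). With the gene span trend removed *pde-6* (-0.28, edgeR adjusted p = 0.328) and *pde-1* (-0.13, edgeR adjusted p = 0.685) lost their calls and *pde-3* turned to 0.42, and *pde-1* also lost its call with library size scaling (-0.61). The exception was *pde-2*, also known from cGMP signalling, which was higher. It had 76.8 and 67.7 CPM in N2 and 145, 103.7 and 154 CPM in the mutant (0.89, SE 0.28, edgeR adjusted p = 0.0223), and without N2 replicate 2 the call ended (0.82). *pde-5* had 26 and 5 reads in N2 and 12, 18 and 14 in the mutant, too few to show a difference (-0.67, SE 0.70, edgeR adjusted p = 0.440), and its sign turned without N2 replicate 1 (0.53).

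A wider list of 54 receptors, effectors and partners of these proteins was counted in the same fit. Of 52 tested, 7 were higher, 23 lower and 22 not called, so that 57.7% were called against 61.5% of all tested genes, with a median of -0.64. Of 23 receptor genes 2 were higher and 11 lower, of 17 genes downstream of Gq and Go 1 was higher and 8 were lower, of 4 downstream of cAMP 1 was higher and none lower, and of 8 regulators 3 were higher and 4 lower. The 3 largest rises were those of *ser-3*, *let-99* and *octr-1*. The octopamine receptor gene *ser-3* rose from 3.66 and 2.73 CPM to 10.3, 16.1 and 9.96 CPM (1.92, SE 0.34, edgeR adjusted p = 0.00122). Of the other octopamine receptor genes, *octr-1* rose from 1.17 and 0.799 CPM to 3.40, 3.04 and 3.46 CPM (1.74, SE 0.34, edgeR adjusted p = 0.00232), whereas *ser-6* had 0.870 and 1.02 CPM in N2 and 0.861, 0.898 and 1.02 CPM in the mutant and was not called (-0.03, SE 0.37, edgeR adjusted p = 0.954). *let-99*, a spindle positioning gene, rose from 13.8 and 19.8 CPM to 66.9, 33.1 and 85.6 CPM (1.88, SE 0.42, edgeR adjusted p = 0.00444). In *ser-3*, *octr-1* and *let-99* the groups did not overlap, and in *let-99* replicate 2 was the lowest mutant library.

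The 3 largest falls on that list were those of *unc-80*, *unc-73* and *ser-1*. *unc-80*, needed for the sodium leak channel, fell from 20.9 and 10.3 CPM to 3.14, 2.84 and 3.26 CPM (-2.34, SE 0.33, edgeR adjusted p = 0.000374). *unc-73*, the Trio homolog that acts downstream of Gq, fell from 52.6 and 71.8 CPM to 16.7, 13.1 and 18.2 CPM (-1.96, SE 0.29, edgeR adjusted p = 0.00045). The serotonin receptor gene *ser-1*, which acts through Gq, fell from 2.54 and 2.34 CPM to 0.829, 0.546 and 0.909 CPM (-1.68, SE 0.36, edgeR adjusted p = 0.00353). In these 3 genes the groups were clearly apart. *gpr-1* and *gpr-2* are near-identical genes, and their counts are uncertain. Of the partner genes 11 were higher and 6 lower with the gene span trend removed, and 4 were higher without N2 replicate 2.

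The difference moved with the length of the gene from start to end, introns included. Over 16983 tested genes with a known span Spearman's correlation between log2 fold change and span was -0.28, and over the 52 pathway genes it was -0.57. Genes are not independent replicates, and these values are a description. For spans under 3 kb the median difference was 0.48 over all genes and 0.82 over 14 pathway genes, of which 7 were higher and 2 lower. From 3 to 6 kb it was -0.07 and 1.02, with 9 of 15 pathway genes higher and 4 lower. From 6 to 12 kb it was -0.44 and -0.70, with 4 of 16 higher and 9 lower, and over 12 kb -0.85 and -1.37, with none of 7 higher and 6 lower. Span and role go together here, since the chemosensory Gα genes had a median span of 3179 bp and the phosphodiesterase genes one of 8894 bp.

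With each library's trend with span removed, 23 pathway genes were higher and 11 lower. The chemosensory Gα genes kept 10 calls with a median of 2.01. *gsa-1* (-2.20), *egl-30* (-2.10), *gpb-1* (-1.57), *rgs-6* (-1.13), *dgk-1* (-1.08), *kin-2* (-1.03), *eat-16* (-0.95), *acy-3* (-0.83) and *pde-4* (-0.53) stayed lower and past the threshold. Calls were lost for *acy-2*, *kin-1*, *pde-1*, *pde-6*, *rgs-2* and *rgs-4* with the sign unchanged, and the sign turned for *acy-1* (0.08), *egl-8* (0.15), *egl-10* (0.18) and *pde-3* (0.42), none of them called. Higher calls were gained for *rgs-3* (1.17), *acy-4* (1.16), *ric-8* (0.87) and *rgs-7* (0.66), and that of *gpc-2* was lost. Of the 6 lower calls in genes over 12 kb only that of *pde-4* was left. The part of the span trend in these falls was not tested further.

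**Figure D5:**
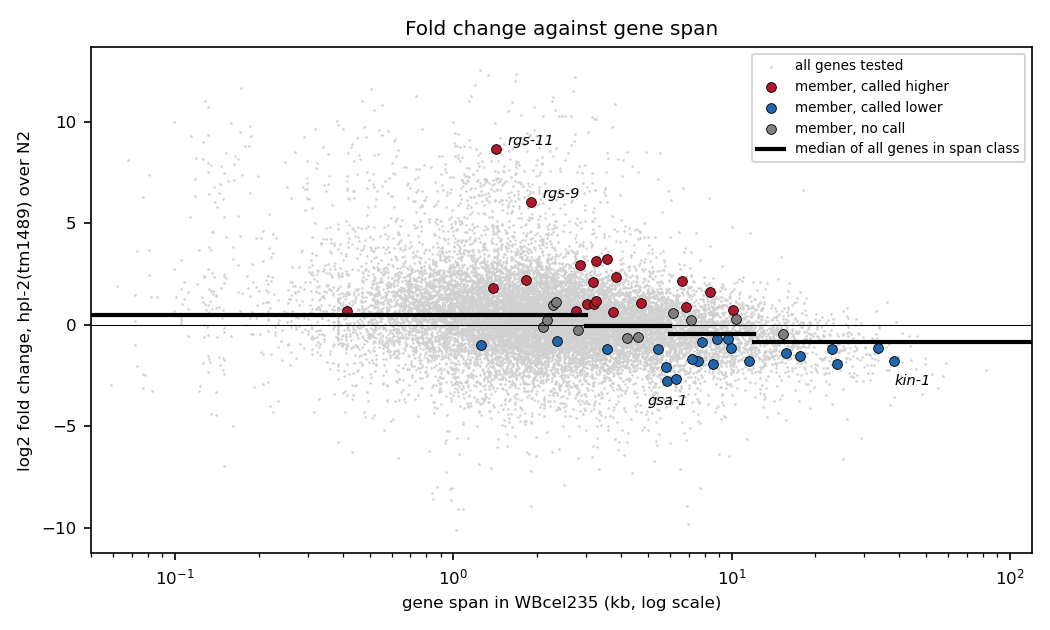
Log2 fold change of *hpl-2*(*tm1489*) over N2 (vertical axis) against gene span in kb (horizontal axis, log scale) for the 52 tested pathway genes (large points, red called higher, blue called lower, grey not called) over all tested genes with a span (small points), with black lines at the median of all genes in each span class. Differences of the pathway genes run from mostly above 0 under 6 kb to mostly below 0 over 12 kb.

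Overlap with other genes limits some counts, because the strand setting of the counting is not given in the sources used here. The spans of 14 of the 54 genes overlap another tested gene, namely *gpa-1*, *gpa-7*, *gpa-14*, *gpa-17*, *gpa-18*, *gpb-1*, *gpb-2*, *egl-10*, *eat-16*, *rgs-4*, *rgs-5*, *acy-4*, *kin-2* and *pde-5*, so reads of either gene may be counted for the other. *gpa-1* overlaps *T19C4.5*, which was higher by 2.87 with 3.34 and 2.84 CPM in N2 and 17.98, 32.5 and 17.3 CPM in the mutant. *gpa-14* overlaps *B0207.7*, which was lower (-2.87), opposite to *gpa-14*, and *eat-16* overlaps *ocrl-1*, which was higher by 2.09, opposite to *eat-16*. *gpa-17* and *egl-10* were also opposite to their overlapping genes, *apb-1* (-1.32) and *F28C1.1* (1.29). In the same direction moved *gpa-7* with *R10H10.6* (1.49), *gpb-1* with *F13D12.6* (-1.10) and *kin-2* with the ncRNA gene *R07E4.8* (-4.38). *R07E4.8* had a mean of 0.279 CPM in N2 and 0.0108 in the mutant, far below *kin-2* (256.5 and 78.75 CPM). *pde-5*, at a mean of 0.208 CPM in N2 and 0.135 in the mutant, overlaps *osr-1* (10.8 and 2.48 CPM, -2.12). *gpa-18*, at a mean of 0.192 CPM in N2 and 0.826 in the mutant, overlaps *W03F8.3* (23.3 and 72.4 CPM, 1.64) and *W03F8.2* (-1.94). The part of overlap in these counts was not tested.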

How the data were processed

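Poly(A) RNA was sequenced from 3 *hpl-2*(*tm1489*) and 2 N2 samples. The authors aligned the reads to WS220 with TopHat2 2.0.14, counted uniquely mapped reads per gene with Rsubread and deposited raw counts in 1 table without normalization. All 5 columns were matched to samples by name, and 0 columns were left unused. The other assays of the study were not analysed here.

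From the deposited counts, 17498 genes passed filterByExpr (minimum count 10) and were tested with edgeR 4.0.16 in R 4.3.3 after TMM normalization, by the robust quasi-likelihood test of *hpl-2*(*tm1489*) against N2 with Benjamini-Hochberg adjustment over all genes tested. The threshold was 0.1. The SE is the log2 fold change over the root of its F value. Counting intervals (95%) treat reads as independent molecules and cover counting error only. The samples are separate libraries of each strain, and p-values set the difference between the groups against the spread between libraries within a group. Library pairs within a genotype differed by 100 or more in chi-square over degrees of freedom, and each counted as 1 replicate.

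Every gene chosen by name was reported, with the values of each library. From the partner list the 3 called genes with the largest rise and the 3 with the largest fall, at a mean of at least 100 counts, were named. *ser-6*, the named pan-neuronal markers, the overlapping genes and the neighbors were named after their values were seen. The genes, lists and alternatives were chosen with earlier results of these data known. *nca-1* and *crtc-1* were not matched by name. Gene spans, overlaps and chromosomes came from a RefSeq table of WBcel235, which matched 97.1% of tested genes, and its coordinates are not given because the counts use WS220.

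Alternatives were DESeq2 1.42.0, scaling by its size factors, by the upper quartile or by total counts (library size) only, no low-count filter, each library left out, a replicate block, offsets removing each library's trend with gene span, an adjusted p under 0.05 and an absolute log2 fold change above 1. The procedure was tested on simulated data for 17498 genes. It recovered 196 of 200 genes changed by 2 on the log2 scale (98%), and 15.5% of its calls were unchanged genes, a share above the threshold of 0.1. The changed genes were drawn from well counted genes only, so the 98% does not carry over to genes with few reads. Only 200 genes were changed there, whereas 61.5% of tested genes were called in the data, so scaling under such wide change was not tested.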

Additional observations from a re-analysis of the deposited data

How the results depend on the processing

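The higher calls among the pathway genes (20) were 11 with upper quartile scaling, and 10 to 20 with 1 library left out. The lower calls (21) were 11 with gene span offsets and 17 to 24 with 1 library left out. Partner genes called higher (7) were 4 with upper quartile scaling, 4 at an absolute log2 fold change above 1, 11 with gene span offsets and 4 to 7 with 1 library left out, and those called lower (23) were 6 with gene span offsets and 20 to 28 with 1 library left out. DESeq2 called 18 pathway genes higher and 22 lower. A fit with 1 library left out has less replication, so a call can end there without a smaller difference. Over all genes 10757 were called, and 8712 to 11254 with 1 library left out. Scaling moved the median log2 fold change of all genes, from 0.16 (TMM) to 0.09 (size factors of DESeq2), -0.16 (upper quartile) and 0.41 (library size alone).

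Called genes changed sign only with gene span offsets, which gave *acy-1* 0.0755, *egl-8* 0.15, *egl-10* 0.18, *gpc-2* -0.16 and *pde-3* 0.42. Those without a call that changed sign were *rgs-7* with gene span offsets (0.66, then called higher), *gpa-12* with library size alone (0.13) and with 1 library left out (-0.48 to 0.15), *pde-5* with 1 library left out (-1.25 to 0.53), *gpa-5* with upper quartile scaling (-0.0591) and with 1 library left out (-0.43 to 2.01), *rgs-3* with upper quartile scaling (-0.0485) and with 1 library left out (-0.0172 to 0.68), and *ric-8* with upper quartile scaling (-0.13), with 1 library left out (-0.0553 to 0.39) and with the replicate block (-0.10). The cause was not tested. Depth limits *gpa-4*, *gpa-5*, *gpa-8*, *gpa-10*, *gpa-11*, *gpa-13*, *gpa-18*, *pde-5*, *rgs-9* and *rgs-11*, whose N2 reads were few.

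Deviations from the group mean correlated at -0.17 between samples of replicate number 1 and at -0.26 between those of number 2. With 2 N2 libraries, each deviates as the mirror of the other. These values therefore cannot show whether samples of the same number share a batch. With the number as a replicate block, 12 pathway genes were called higher and 15 lower, 4 partner genes higher and 20 lower, and 7879 of all genes.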

Other observations

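Genes next to the *rgs* genes with the largest rises, looked at after the values of those genes were seen, also held extreme counts. Beside *rgs-9*, *ZC53.1* had 1 and 6 reads in N2 and 411, 91 and 451 reads in *hpl-2*(*tm1489*), and *ZC53.6* had 0 reads in both N2 libraries and 61, 12 and 66 reads in the mutant. For both, replicate 2 was the lowest mutant library, whereas *rgs-9* itself had 1023, 787 and 882 reads. *rgs-10* and *rgs-11* are neighbors on chromosome X. On the far side of *rgs-10*, *F45B8.3* had 493 and 455 reads in N2 and 1, 1 and 2 reads in the mutant, so that adjacent genes changed in opposite directions. On the far side of *rgs-11*, *F45B8.5* had 339 and 152 reads in N2 and 430, 410 and 397 in the mutant, and it was not called (log2 fold change 0.10, SE 0.31, edgeR adjusted p = 0.812).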
